A study of Mus musculus with 284 samples.

Results

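Cholesterol and fatty acid synthesis was followed through 28 named genes in single tumour propagating cells of mouse skin squamous tumours. The genes were given by name and not by a rule on their levels, although earlier results of these data were known. All 28 were found among the 54247 gene rows of the count table. They comprised 17 enzymes of the sterol arm (Acat2, Hmgcs1, Mvk, Pmvk, Mvd, Idi1, Fdps, Fdft1, Sqle, Lss, Cyp51, Msmo1, Nsdhl, Hsd17b7, Ebp, Sc5d and Dhcr7), 7 enzymes of the fatty acid arm (Acly, Acaca, Fasn, Scd1, Scd2, Elovl6 and Elovl1) and 4 regulators (Srebf1, Srebf2, Scap and Insig1). The table held 284 cells from 4 C57BL/6 mice, 69 and 88 cells from the wild-type mice WT1 and WT2 and 73 and 54 cells from the mice KO1 and KO3, labelled Sirt6-/-. Sirt6 codes for a histone deacetylase. All 4 mice carried ROSA26-LSL-eYFP, a reporter that needs Cre, and Keratin14-Cre, which is active in keratinocytes of the basal layer, and all were given DMBA, a carcinogen, once at 8 weeks of age and then TPA, a tumour promoter, for over 20 weeks. Live cells positive for YFP were sorted on the surface proteins CD34 and CD49f into wells, and each cell became 1 library by a modified Smart-seq2 protocol, which amplifies full-length cDNA and has no molecular identifiers. Each sample was 1 cell, so the mouse was the replicate, with 2 mice per genotype.

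Cholesterol is built from acetyl-CoA. The mevalonate pathway joins acetyl-CoA units to HMG-CoA and mevalonate, makes isoprenoids from mevalonate and squalene from isoprenoids, and the later enzymes close squalene to lanosterol and trim it to cholesterol. Fatty acid synthesis uses the same acetyl-CoA, released from citrate by Acly, carboxylated by Acaca, built into palmitate by Fasn, desaturated by Scd1 and Scd2 and lengthened by Elovl6 and Elovl1. Srebf1 and Srebf2 encode SREBP transcription factors, which Scap escorts out of the endoplasmic reticulum when sterols are low and which Insig1 holds back when sterols are plentiful. SREBP-2 is best known for sterol genes and SREBP-1 for fatty acid genes. Differentiating keratinocytes of the epidermis make cholesterol, ceramides and long fatty acids for the barrier of the outer skin.

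Upstream sequences were listed for 23 of the 28 genes in the RefSeq promoter table (GRCm38.p6; not used here: Fdps, Fdft1, Sqle, Scd1 and Scd2), and the 250 bases before each transcript start were searched on both strands. The sterol regulatory element, searched as TCACNCCAC, was matched in 1 of these 23 genes, Hmgcs1, and in 1.22% of all 27025 genes with a listed promoter. CCAAT, the core of the site bound by the factor NF-Y, was matched in 13 of 14 sterol genes with a sequence, in 2 of 5 fatty acid genes (Fasn and Elovl1) and in 3 of 4 regulators, compared with 37.5% of all genes. The GC box GGGCGG was matched in 13 of 14 sterol genes, 2 of 5 fatty acid genes and all 4 regulators, compared with 35.4% of all genes. Matches of CCAAT on the 2 strands can overlap, and a gene with several listed starts counted as matched when any of them held the letters. A match is a description of these letters and no evidence of a bound factor. A missing match does not show that a gene lacks a site, since other letters and positions were not searched. The sequences below are those of the sterol gene with the sterol element, of 2 sterol genes and a regulator that varied together across cells, and of Ebp, which did not. Capitals mark CCAAT or its reverse complement ATTGG and, in Hmgcs1, the sterol element, which lay 129 bases before the start.
Hmgcs1, chr13:119690101-119690350, plus strand: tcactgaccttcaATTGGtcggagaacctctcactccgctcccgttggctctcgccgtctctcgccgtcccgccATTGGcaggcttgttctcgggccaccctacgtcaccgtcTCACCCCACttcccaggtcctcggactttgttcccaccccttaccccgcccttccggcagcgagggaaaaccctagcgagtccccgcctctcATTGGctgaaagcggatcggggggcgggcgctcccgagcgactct
Idi1, chr13:8885356-8885605, plus strand: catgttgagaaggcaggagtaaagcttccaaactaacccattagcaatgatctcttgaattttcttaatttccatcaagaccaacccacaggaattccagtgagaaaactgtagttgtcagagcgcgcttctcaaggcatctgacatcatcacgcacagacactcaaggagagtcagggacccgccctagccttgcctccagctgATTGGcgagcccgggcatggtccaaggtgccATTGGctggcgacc
Cyp51, chr5:4104698-4104947, minus strand: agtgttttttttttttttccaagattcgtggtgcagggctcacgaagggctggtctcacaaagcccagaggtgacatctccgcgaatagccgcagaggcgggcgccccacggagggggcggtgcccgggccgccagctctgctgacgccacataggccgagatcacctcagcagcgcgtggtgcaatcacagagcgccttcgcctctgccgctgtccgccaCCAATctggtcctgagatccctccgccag
Insig1, chr5:28071162-28071411, plus strand: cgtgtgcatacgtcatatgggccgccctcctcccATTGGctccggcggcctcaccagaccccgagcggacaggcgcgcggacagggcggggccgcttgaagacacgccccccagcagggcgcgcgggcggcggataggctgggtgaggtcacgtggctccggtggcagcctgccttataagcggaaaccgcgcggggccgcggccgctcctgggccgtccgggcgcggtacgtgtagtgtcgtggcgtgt
Ebp, chrX:8193513-8193762, minus strand: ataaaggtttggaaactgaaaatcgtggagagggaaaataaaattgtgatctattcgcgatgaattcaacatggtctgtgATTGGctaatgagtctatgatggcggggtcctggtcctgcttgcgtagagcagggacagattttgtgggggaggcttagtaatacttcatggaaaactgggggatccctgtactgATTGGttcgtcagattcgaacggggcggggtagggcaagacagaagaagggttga
Ebp held 2 matches of CCAAT, as did Idi1, while Cyp51 and Insig1 held 1 each and Hmgcs1 held 3.

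The cells held 523999 to 1684464 estimated counts each, with a median of 1130412, and no 2 cells had identical values. Median counts per cell ranged from 1048412 in WT2 to 1266651 in KO3, and median detected genes from 5783.5 in WT2 to 7009 in WT1. WT2 also had the fewest (5511.5) after every cell was thinned to 500000 counts. Every plate carried a single genotype, and an effect of plate cannot be told apart from one of genotype. Sirt6 itself, in counts per 1000000 counted (CPM), was 16.7 and 25.2 for the wild-type and 27.0 and 14.5 for the labelled mice, which does not separate the genotypes, and the deposited gene counts do not show whether the deleted part was read. The animals are therefore called mice labelled Sirt6-/- here. Krt5 and Krt14, which define basal keratinocytes, were found in 100% of the cells, and the 6 keratinocyte markers summed to 26789 to 39587 CPM per mouse. The 10 markers of sebocytes, the lipid-making cells of the sebaceous gland, summed to 11.1 to 63.3 CPM per mouse, with Awat1, Dgat2l6 and Fa2h at 0 in every cell. Lrig1 was found in 26.4% of all cells, and Krt79 in 6.3%, at up to 27.85 CPM (KO1). In WT1, WT2, KO1 and KO3, 10, 1, 4 and 4 cells had counts for 2 or more sebocyte markers. The 7 adipocyte markers summed to 0.88 to 37.9 CPM, nearly all of it Fabp4, with Adipoq, Lep and Cidec at 0. Summed markers of fibroblasts, endothelial cells, immune cells and melanocytes stayed between 0.12 and 29.7 CPM.

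Both arms were transcribed in these cells. Per length of annotated exons, on a scale with the same total in each mouse (transcripts per 1000000), Elovl1, which elongates very long fatty acids for ceramides, was the highest of the 28 genes with a mean of 128.3 over the mice, followed by Acly at 115, Ebp at 111 and Idi1 at 105. Acaca at 8.4 and Lss at 10.0 were the lowest, and Acaca also has the longest annotated exons of the 28, 17074 bases in all. The exon length counts every annotated transcript and so understates genes with long minor transcripts. Detection varied widely. Acat2 had a count in 96.8% of all cells and Srebf2 in 87.7%, whereas Mvd was found in 30.6%, Mvk in 35.6% and Lss in 38.0%. On thinning, Acat2's share went from 95.7 to 88.4% in WT1, 93.2 to 84.1% in WT2 and 100 to 94.5% in KO1. It stayed at 100% in KO3. Mvd was found in 32 of 69 cells of WT1 (46.4%, 95% Clopper-Pearson interval 34.3 to 58.8%) and in 11 of 88 cells of WT2 (12.5%, 6.4 to 21.3%), intervals that cover counting error only, and both shares were again 46.4% and 12.5% after thinning. No single cell gave more than 6.6% of the summed counts of any of the 28 genes. A cell had counts for a median of 12 (WT1), 8 (WT2), 9 (KO1) and 13 (KO3) of the 17 sterol genes and of 6, 4, 5 and 6 of the 7 fatty acid genes.

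**Figure D1:**
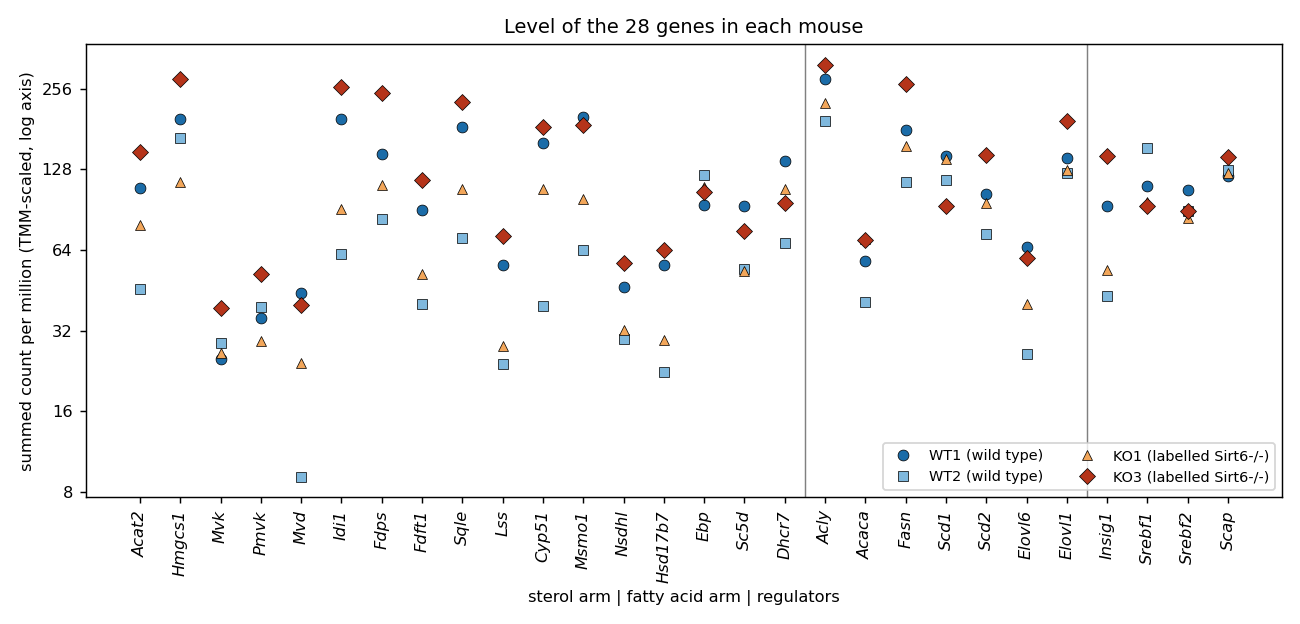
Summed CPM of each gene (TMM-scaled, log axis) in the 4 mice, in pathway order within the sterol arm, the fatty acid arm and the regulators. For most sterol genes KO3 and WT1 lie above KO1 and WT2, whereas Ebp (93.9 to 122 CPM), Scap (121 to 143 CPM) and Srebf2 (84.1 to 107 CPM) stay close together.

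Summed per mouse and scaled by TMM, a factor per library from the trimmed ratios of its genes, 13 of the 17 sterol genes had the same 2 mice, WT1 and KO3, above the other 2, so that their genotypes overlapped. Values for the mice are listed in the order WT1, WT2, KO1, KO3 from here on. Idi1, the isomerase that makes the starting unit of prenyl chains, stood at 198, 62.0, 91.0 and 260.4 CPM, or 130 ± 96.1 in wild-type and 175.7 ± 119.8 CPM in labelled mice (SD, n = 2 each). Mvd, which makes isopentenyl diphosphate, stood at 44.1, 9.11, 24.3 and 39.8 CPM. Cyp51, the lanosterol demethylase, stood at 160.5, 39.5, 107.9 and 184 CPM. In all 3 genes 1 mouse of each genotype was high and the other low, so the genotypes overlapped. The 2 mice of a genotype differed 3.19 times for Idi1, 4.84 times for Mvd and 4.06 times for Cyp51 within the wild type.

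The same mice were high for most of the other sterol enzymes. Sqle, the squalene epoxidase, stood at 184, 71.1, 108 and 228 CPM, and Msmo1, a demethylating oxidase, at 201, 63.9, 99.1 and 188 CPM. Fdps, the farnesyl diphosphate synthase, stood at 146, 83.8, 112 and 246 CPM, and Fdft1, the squalene synthase, at 89.9, 40.3, 52.0 and 116 CPM. Lss, Hsd17b7, Acat2 and Nsdhl also had WT2 lowest and KO3 highest, with the highest mouse 1.92 to 3.26 times the lowest. Fdft1 shares 774 exon bases with Ctsb on the opposite strand, a gene at 884 CPM, and the use of strand in counting is not given in the sources used here, so its level is uncertain. Ebp, the sterol isomerase, did not have this order, at 93.9, 122, 110 and 105 CPM, and its range of 1.30 times was the smallest of the sterol genes. Hmgcs1, which makes HMG-CoA, was lowest in KO1 (115 CPM) and highest in KO3 (277 CPM), and Mvk (25.2 to 38.7 CPM) and Pmvk (29.3 to 51.9 CPM) varied less, with WT1 below WT2 in both. Sc5d (93.4, 54.3, 53.7 and 75.1 CPM) and Dhcr7 (138, 67.8, 108 and 95.8 CPM), the enzymes of the last steps, were highest in WT1.

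The highest mouse was 1.53 (Scd1) to 2.50 times (Elovl6) the lowest for the fatty acid genes. For the sterol genes it was 1.30 (Ebp) to 4.84 times (Mvd). Acly stood at 278, 194, 227 and 315 CPM and Fasn at 179, 115, 157 and 266 CPM, again with KO3 highest and WT2 lowest. Scd2, the desaturase, stood at 104, 73.6, 96.0 and 145 CPM, whereas Scd1, its close relative, was lowest in KO3, at 143, 117, 140 and 93.5 CPM. Elovl6 stood at 65.5, 26.2, 40.2 and 59.8 CPM and Elovl1 at 141, 124, 127 and 195 CPM. Acaca, acetyl-CoA carboxylase, stood at 58.5, 40.8, 70.4 and 69.9 CPM, the only 1 of the 28 with both labelled mice above both wild-type mice. Among the regulators, Insig1 stood at 93.1, 43.1, 54.0 and 143 CPM, like the sterol enzymes. Srebf1 stood at 111, 154, 96.6 and 93.1 CPM, the only 1 of the 28 with both labelled mice below both wild-type mice. Srebf2 (107, 89.3, 84.1 and 89.7 CPM) and Scap (121, 127.8, 124 and 143 CPM) had the smallest ranges of the 28, 1.27 and 1.18 times.

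Between genotypes, 0 of the 28 genes passed edgeR's quasi-likelihood test (adjusted p from 0.965 to 0.999, Benjamini-Hochberg over all genes), and 0% of all 16567 genes tested passed. At an unadjusted p under 0.05 the count was also 0 of 28, compared with 5.12% of all genes. DESeq2 called 0 of the 28 and 0.942% of the genes to which it gave an adjusted p, and limma-voom called 0 of the 28 and no other gene. All 28 genes passed the filter on low counts. The fitted difference, labelled minus wild type, was positive for 22 of 28 genes with a median of 0.26 on the log2 scale, beside a median of -0.01 over all genes, 49.3% of which were positive. The most positive was Fdps at 0.64 (SE 0.497) and the most negative Srebf1 at -0.48 (SE 0.242). These signs rest on single mice. Without KO3 only 8 of 28 differences were positive, with a median of -0.16, and without WT2 11 of 28, with a median of -0.08, while without WT1 and without KO1 25 and 23 were positive. Both labelled mice lay above both wild-type mice for 1 of 28 genes, compared with 17% of all genes, and below them for 1 of 28, compared with 18.7%.

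The order of the mice was the larger pattern. WT1 and KO3 both lay above WT2 and KO1 for 20 of the 28 genes (13 of 17 sterol genes, 5 of 7 fatty acid genes and 2 of 4 regulators), compared with 16.9% of all genes. This order was chosen after the values were seen. WT2 was the lowest mouse for 19 of 28 genes, compared with 29.4% of all genes. The median sterol gene differed by 1.16 on the log2 scale between WT1 and WT2 and by 0.91 between KO3 and KO1, both -0.01 over all genes. The suprabasal genes, a list of 16 detected differentiation markers, had mean levels of 8.30, 8.05, 8.24 and 9.24 on the log2 CPM scale, the cell cycle genes 6.82, 6.14, 6.49 and 7.01, and the glycolysis genes 8.99, 8.55, 8.81 and 9.01. All 3 lists had WT2 lowest and KO3 highest, as had Idi1, Fdps and Sqle. The immediate early genes, which respond quickly to stress, were highest in WT2 (9.49, beside 8.42 to 8.57), and WT2 also had the fewest detected genes. The part of these differences between mice in the sterol order was not tested.

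Other genes of the pathway were counted from 4 lists of 47 genes outside the 28. None of the 45 with a test passed between genotypes by edgeR, limma-voom or DESeq2. At an unadjusted p under 0.05 there were 2 (Mylip and Ppara), 0 and 4, compared with 848, 818 and 1190 of all 16567 genes. Ppara had counts in only 1 cell of KO1 and 1 cell of KO3. The genes named are those with the largest differences by edgeR. Of 9 other sterol genes, Cyb5r3 (-0.46) and Acat1 (-0.06) were the most negative. Of 11 uptake and transport genes, Lrp8 (1.55) and Osbp (0.74) were the most positive and Abcg1, a sterol exporter, (-2.48) and Mylip, a ubiquitin ligase, (-1.54) the most negative. Abcg1 stood at 6.22, 27.4, 4.50 and 1.52 CPM, highest in WT2. Of 17 other fatty acid genes, Elovl4 (0.82) and Fads2 (0.79) were the most positive and Acacb (-2.13, at most 0.53 CPM) and Lpin1 (-1.04) the most negative. Of the 8 other regulators, Pparg stood at 0, 0.30, 1.34 and 4.24 CPM and Ppara at 0, 0, 0.14 and 0.77 CPM, the most positive of their list, and Nr1h3 (0.53, 2.11, 0 and 0.78 CPM) and Insig2 (-0.27, SE 0.397) were the most negative.

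Within a mouse, the sterol genes varied together from cell to cell. Log2(CPM + 1) values were used after removal of each mouse's trends with depth and detected genes, for genes detected in 20% or more of each mouse's cells, which left 16 sterol genes (Mvd was too rare in WT2) and all 7 fatty acid genes. The mean Pearson correlation over the 120 sterol pairs was 0.188, 0.174, 0.172 and 0.293 (69, 88, 73 and 54 cells). Over all pairs of the 8474 genes found as often it was 0.001 to 0.004. Over the 21 fatty acid pairs the mean was 0.083, 0.048, 0.033 and 0.146, and over the 112 pairs of a sterol with a fatty acid gene 0.104, 0.077, 0.092 and 0.197. In each of the 4 mice the fatty acid genes were therefore correlated less among themselves than with the sterol genes, and the sterol pairs most. All these values are descriptions over the cells of a mouse, without a term for plate, and no test was made on them. KO1 had 65 cells on plate 1 and 8 on plate 2, and WT2 had 7 on plate 3 and 81 on plate 4.

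**Figure D2:**
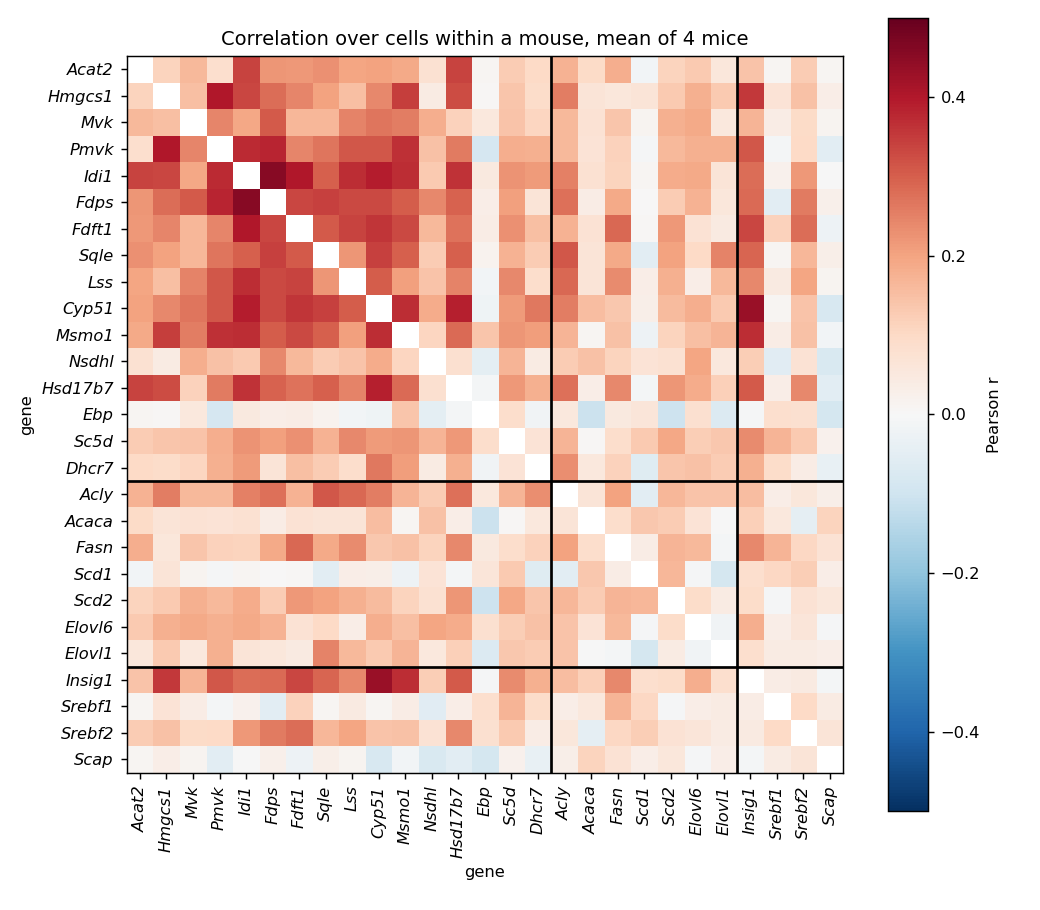
Pearson correlation of each pair of genes over the cells of a mouse, as the mean of the 4 mice (colour), with black lines between the sterol arm, the fatty acid arm and the regulators; the diagonal is left blank. The block from Hmgcs1 to Hsd17b7 is red apart from pale rows of Nsdhl, the rows of Ebp, Scd1 and Scap are close to white, and Insig1 takes the colours of the sterol block.

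The closest pair was Idi1 and Fdps, consecutive enzymes of the isoprenoid steps, at 0.443, 0.349, 0.519 and 0.511. Of the 120 sterol pairs 85 were positive in all 4 mice, beside 9 of 21 fatty acid pairs and 50 of 112 pairs between arms. The same share over all gene pairs was not computed. Against a sterol score, the mean standardised level of the other sterol genes, Idi1 had a mean correlation of 0.603 over the mice, Cyp51 of 0.549, Fdps of 0.545, Msmo1 of 0.528 and Fdft1 of 0.502. Ebp stood apart with 0.129, 0.089, -0.142 and 0.041, a mean of 0.029 that 61.1% of other genes fell below. Nsdhl (0.224) and Dhcr7 (0.235) were also low among the sterol enzymes, although at least 97.0% of other genes lay below them.

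The fatty acid genes split. Acly, which supplies the acetyl-CoA of both arms, followed the sterol score at 0.417, 0.271, 0.361 and 0.571, more closely than the score of its own arm in all 4 mice. The sterol score averaged 16 genes, whereas the fatty acid arm held 7 with Acly, which was left out of its own score. This difference in size was not adjusted for. Fasn (mean 0.285), Scd2 (0.281), Elovl6 (0.278) and Elovl1 (0.214) were positive with the sterol score in every mouse. Acaca (-0.024, 0.177, -0.084 and 0.340) and Scd1 (0.028, -0.047, -0.034 and 0.150) were not. Scd1 and Scd2, desaturases of neighbouring genes on chromosome 19, had a correlation of 0.089, 0.133, 0.103 and 0.339 with each other. The arms as scores correlated at 0.459, 0.380, 0.469 and 0.656, as the plot of both scores per cell shows.

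**Figure D3:**
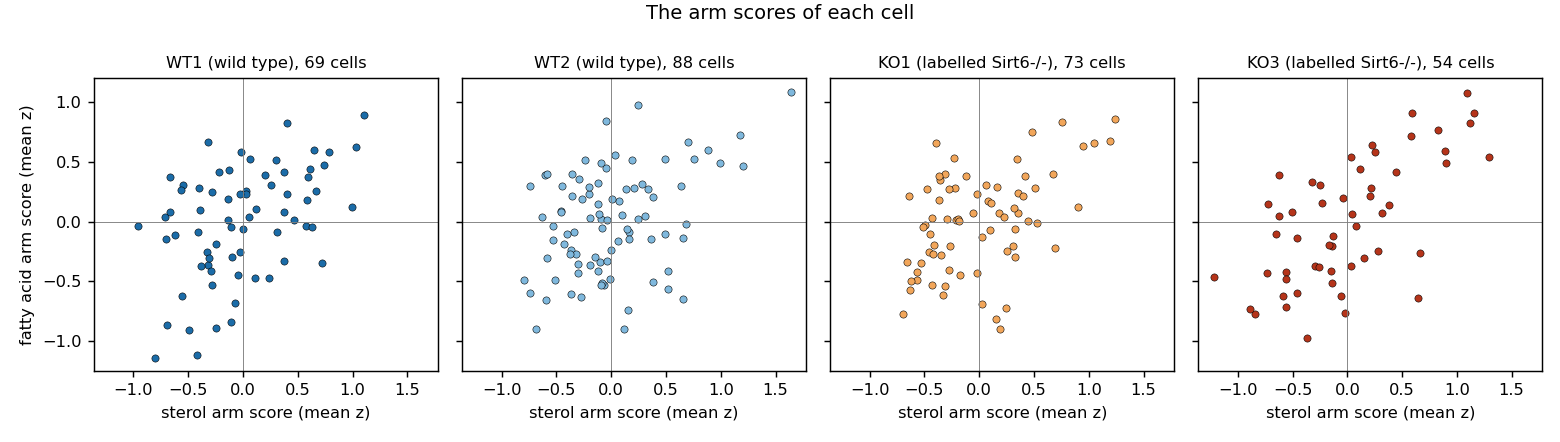
Fatty acid arm score against sterol arm score (each the mean standardised level of the arm's genes after removal of depth trends), 1 point per cell and 1 panel per mouse. The points slope upward in each panel, with correlations of 0.459, 0.380, 0.469 and 0.656 from left to right, and the cells with the highest sterol scores also have fatty acid scores above 0 in most cases.

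The transcripts of the regulators differed in how they followed the enzymes. Insig1 correlated with the sterol score at 0.464, 0.166, 0.653 and 0.684, and with Cyp51 alone at 0.246, 0.339, 0.457 and 0.686. Srebf2, at 0.322, 0.426, 0.166 and 0.296, was positive in every mouse. Srebf1 had values of 0.110, 0.153, -0.147 and 0.163 with the sterol score and 0.240, 0.022, 0.142 and 0.127 with the fatty acid score. Scap lay at 0.088, -0.052, -0.055 and -0.108 with the sterol score.

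Outside the 28, the genes most like each arm were taken as the 10 with the highest lowest value among the 4 mice, of 8447 genes. For the sterol arm they were Gm13502 (lowest 0.546), Gm3571 (0.519), Perp (0.484), Gm6781 (0.480), Jup (0.450), Sult2b1 (0.439), Dstn (0.435), Krt6b (0.404), Sfn (0.394) and Fgfbp1 (0.384). Jup and Perp code for desmosome proteins, Sult2b1 for a sulfotransferase that makes cholesterol sulfate, and Krt6b for a keratin of stressed epidermis. For the fatty acid arm they included Gm6781 (0.260), Glrx (0.255), Gm5182 (0.250), Stard4 (0.242), Trim29 (0.228), Grhl1 (0.224), Degs1 (0.224), Klk11 (0.221) and Jup (0.220). Stard4 carries cholesterol between membranes, Degs1 makes ceramide, and Grhl1 is also in the suprabasal list. Every gene of both lists with a Gm number shares sequence with 1 of the 28. Of the 31-base words of its annotated transcript, Gm13502 shares 100% with Idi1, Gm5182 89.3% with Acaca, Gm3571 67.6% with Fdps and Gm6781 49.8% with Fdft1. Reads of these genes and of the enzymes may have been split between copies, so the 4 likenesses are uncertain, and so are the enzymes' own levels by as much as the copies hold, 8.2% of Idi1, 8.5% of Acaca, 2.8% of Fdps and 3.5% of Fdft1. Of the pathway lists, Stard4 (mean 0.447) and Aacs (0.430) followed the sterol score, values named after they were seen, whereas Acsl4 (-0.231) and Fads1 (-0.215) had negative means.

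Cell state was measured from marker lists that hold none of the 28 genes, and the cells of each mouse were parted at its own median score into a high and a low class. With the suprabasal list (keratins and cornified envelope genes of differentiating keratinocytes), 15 of the 17 sterol genes had a higher level in the high class of all 4 mice, 2 of them past the threshold, and Ebp and Sc5d did not. Fdps stood at 93.3, 48.7, 60.4 and 121 CPM in the low classes of the 4 mice and at 211, 118.5, 167 and 383 CPM in the high classes. Its log2 difference was 1.40 (SE 0.117, edgeR adjusted p = 0.035, mouse as block). Sqle rose in the same way, from 124 to 257, 41.0 to 100.8, 59.6 to 159.7 and 115 to 352 CPM, with a log2 difference of 1.35 (SE 0.122, edgeR adjusted p = 0.0368). In both genes the high class lay above the low class of the same mouse in 4 of 4 mice. Fdps lies on chromosome 3 (GRCm38, 89093588 to 89101959) and Sqle on chromosome 15 (59315077 to 59331192).

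These were 2 of the 28 genes past the threshold, both higher, compared with 0.234% of all 14108 genes called higher. At an unadjusted p under 0.05 there were 24 of 28, compared with 14.5% of all genes. DESeq2 called 22 of the 28 (21 higher and Scd1 lower), compared with 10.6% of the 13834 genes to which it gave an adjusted p. In 22 of 28 genes the high class was above the low class in all 4 mice (15 of 17 sterol genes, 6 of 7 fatty acid genes and 1 of 4 regulators), compared with 13.7% of all genes. In 2 of 28, Ebp and Scd1, it was below in all 4 mice, compared with 12.4%. The median log2 difference was 1.09 over the sterol genes, 0.78 over the fatty acid genes and 0.29 over the regulators, beside -0.01 over all genes. The calls of Fdps and Sqle needed all 4 mice and the block. Without any 1 mouse neither passed (adjusted p 0.136 to 0.219 for Fdps and 0.136 to 0.236 for Sqle, edgeR), nor without the block (0.366 and 0.475), while the differences kept their sign and lay between 1.26 and 1.47.

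**Figure D4:**
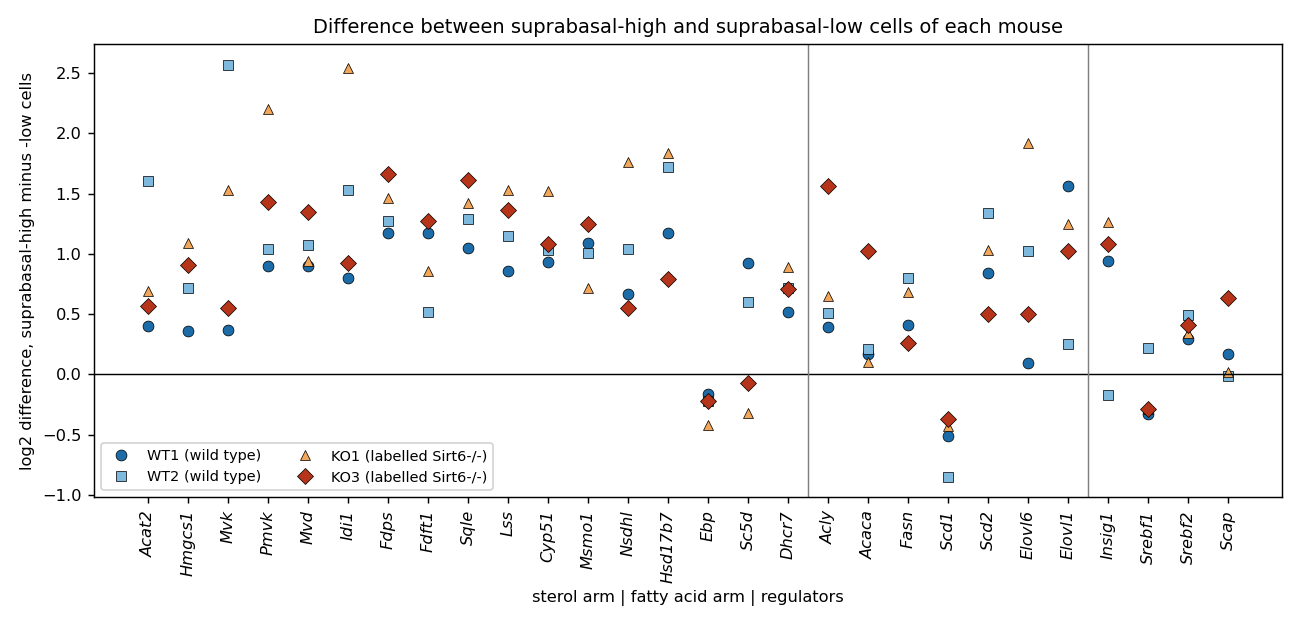
Log2 difference between the suprabasal-high and suprabasal-low cells of each mouse for the 28 genes (1 point per mouse, from summed CPM with 0.5 added). Points lie above 0 in all 4 mice for 22 genes and below 0 in all 4 for Ebp (-0.16 to -0.42) and Scd1 (-0.37 to -0.85).

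Some other sterol enzymes, early and late in the pathway, had differences of similar size with a larger SE. Idi1 had a log2 difference of 1.45 (SE 0.323), with 148 and 259 CPM in the low and high cells of WT1 and 26.9 and 159 CPM in those of KO1. Pmvk and Hsd17b7 were at 1.41 each (SE 0.270 and 0.237), Mvk at 1.27 (SE 0.441), Lss at 1.25 (SE 0.171) and Cyp51 at 1.14 (SE 0.133), none past the threshold (adjusted p 0.0656 to 0.294, edgeR). Msmo1 (1.02), Nsdhl (1.02), Mvd (1.09), Fdft1 (0.96), Acat2 (0.82), Hmgcs1 (0.78) and Dhcr7 (0.72) were positive in every mouse. Sc5d, the desaturase late in the pathway, was not, at 0.92 and 0.60 in WT1 and WT2 and -0.32 and -0.07 in KO1 and KO3. Its interaction of class and genotype was -0.96 (SE 0.267, edgeR adjusted p = 1). Ebp was at -0.26 (SE 0.100), with -0.16, -0.22, -0.42 and -0.22 in the 4 mice.

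The 2 desaturase genes had differences of opposite sign. Scd1 stood at 167, 148, 159.8 and 105.5 CPM in the low classes and at 117, 82.1, 118 and 81.7 CPM in the high classes, a log2 difference of -0.54 (SE 0.119) that did not pass the threshold (adjusted p = 0.17, edgeR). Scd2 stood at 76.4, 41.4, 63.7 and 121 CPM in the low and at 137, 105.4, 130.4 and 172 CPM in the high classes, a log2 difference of 0.93 (SE 0.163, adjusted p = 0.126, edgeR). The difference between the 2 genes was not tested. Elovl1 (1.03), Elovl6 (0.89), Acly (0.78), Fasn (0.54) and Acaca (0.38) were positive in every mouse. Among the regulators Srebf2 was higher in all 4 mice with a log2 difference of 0.39 (SE 0.100), Insig1 in 3 of 4 (0.79, SE 0.268), Scap in 3 of 4 (0.20) and Srebf1 in 1 of 4 (-0.17).

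Other pathway genes were higher or lower by gene. Elovl4, which makes the very long fatty acids of barrier ceramides, stood at 18.9, 0.0, 3.6 and 6.7 CPM in the low and at 120, 60.4, 80.2 and 257.5 CPM in the high classes. Fads2, a desaturase of polyunsaturated fatty acids, was at -1.42 (SE 0.434) and, named after the values were seen, Acsl4 at -1.73 (SE 0.273) and Fads1 at -1.66 (SE 0.366), all 3 negative in 4 of 4 mice. By edgeR 0 of 42 pathway genes passed in this comparison, compared with 0.248% of all genes. At an unadjusted p under 0.05 there were 14 of 42, compared with 14.5% of all genes. DESeq2 called 14 of 42, these 4 among them, compared with 10.6% of the genes to which it gave an adjusted p. Median counts per cell of the high and low classes lay within 1040293 to 1271627 in all mice, and median detected genes were 5753.5 to 7028.5 in the high and 5809 to 6884 in the low classes. The adipocyte markers summed to 0, 0, 0.1 and 0.1 CPM in the low and 1.8, 2.3, 18.5 and 74.9 CPM in the high classes, with Adipoq, Lep and Cidec at 0, and the immune markers to 6.0, 26.8, 0.7 and 12.2 CPM against 6.9, 32.5, 11.8 and 14.1 CPM. The sebocyte markers were higher in the high class of WT1 and KO1 and lower in that of WT2 and KO3. The keratinocyte markers differed between classes mainly in KO1, at 19555 CPM in the low and 33920.4 CPM in the high class. The part of these lists in the class differences was not tested.

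As continuous scores, the sterol arm correlated with the suprabasal list at 0.458, 0.585, 0.540 and 0.616 and the fatty acid arm at 0.291, 0.292, 0.236 and 0.367. Against the basal list (basal keratins, integrins and laminins) the sterol arm had -0.243, -0.529, -0.373 and -0.482. The stress response list (Atf4, amino acid synthesis and chaperone genes) gave 0.142, 0.257, 0.277 and 0.162 with the sterol arm, and oxidative phosphorylation -0.086, 0.147, -0.078 and 0.080. These are descriptions over the cells of each mouse.

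**Figure D5:**
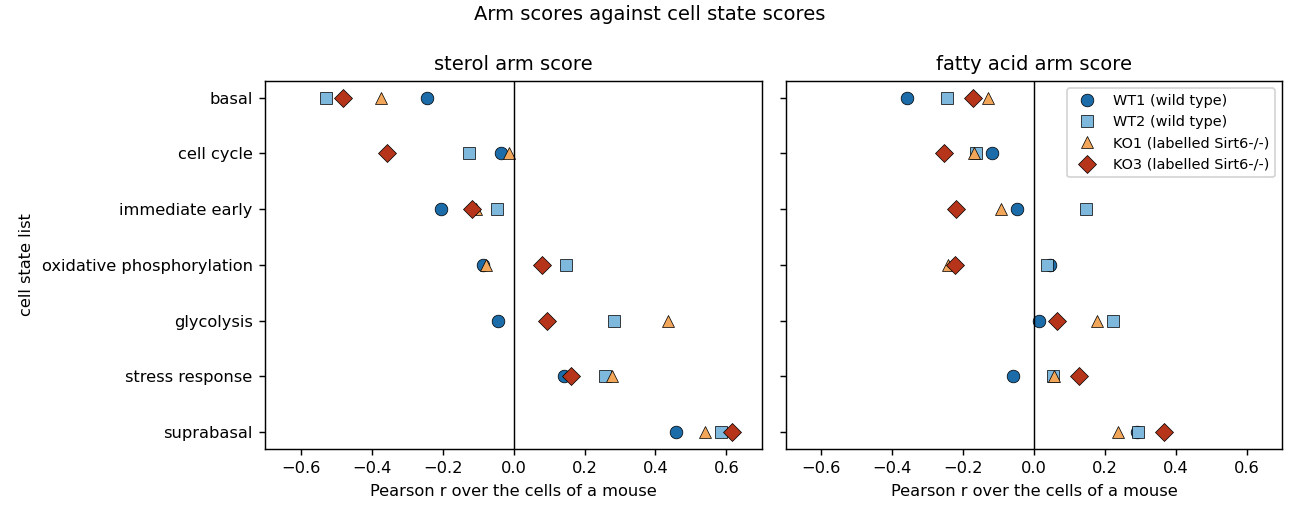
Pearson correlation of the sterol arm score (left) and the fatty acid arm score (right) with 7 cell state scores over the cells of each mouse, 1 point per mouse. The suprabasal points are the farthest right for both arms (0.458 to 0.616 and 0.236 to 0.367), and the basal points lie to the left of 0 in every mouse.

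With the cell cycle list the genes leaned the other way, to a smaller extent. By edgeR 0 of 28 passed, compared with 0.0212% of all 14160 genes, with 6 of 28 at an unadjusted p under 0.05, compared with 10.4% of all genes. DESeq2 called 3 lower, Elovl1, Acly and Scap, compared with 6.24% of the 13885 genes to which it gave an adjusted p. The high class was below the low class in all 4 mice for 7 of 28 genes, compared with 10.6% of all genes, and above it for 1 of 28, Ebp, compared with 10.2%. Elovl1 stood at 189.8, 146, 148 and 281 CPM in the low and at 96.7, 99.7, 107 and 119.7 CPM in the high classes, a log2 difference of -0.81 (SE 0.160). Elovl1 shares 53 exon bases with Cdc20, a cycle gene, on the opposite strand. Acly had a difference of -0.51 (SE 0.096), and Ebp of 0.26 (SE 0.123). When the trends with depth and detected genes were left in the score, 10 of the 28 differences changed sign. Elovl4, of the pathway lists, fell with a log2 difference of -2.80 (SE 0.187, edgeR adjusted p = 0.0483), from 120, 53.5, 70.2 and 228.5 CPM in the low to 13.1, 6.7, 13.4 and 36.8 CPM in the high classes, but did not pass without any 1 mouse (adjusted p 0.166 to 0.330).

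Glycolysis, named in the series title, gave no call among the 28. By edgeR 0 passed and 0% of all 14169 genes did, with 6 of 28 at an unadjusted p under 0.05 (5.01% of all genes) and 0 of 28 by DESeq2 (0.96%). The median difference over the sterol genes was 0.37, beside 0 over all genes, and 16 of 17 were positive. The glycolysis-high cells were above the low cells in all 4 mice for 8 of 28 genes (Hmgcs1, Mvk, Pmvk, Cyp51, Msmo1, Hsd17b7, Fasn and Srebf2), compared with 7.14% of all genes, and below for 1, Dhcr7, compared with 6.91%. Cyp51 had a difference of 0.63 (SE 0.167) with 0.18, 0.46, 0.88 and 1.00 in the 4 mice. The correlation of the sterol score with the glycolysis score was uneven, at -0.044, 0.284, 0.435 and 0.094. In WT1 the differences of Fdps (-0.31), Fdft1 (-0.53), Sqle (-0.31) and Idi1 (-0.27) were negative.

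With the immediate early list 0 of 28 passed by edgeR and 0% of all 14174 genes did, with 2 of 28 at an unadjusted p under 0.05 (5.39% of all genes) and 0 of 28 by DESeq2 (1.51%). The high class was above the low class in all 4 mice for 0 of 28 genes, compared with 7.53% of all genes, and below for 3, Idi1 (-0.53), Fdft1 (-0.33) and Scd2 (-0.50), compared with 7.5%.

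Whether a class difference itself differed between genotypes was tested as an interaction. For each of the 4 lists 0 of 28 genes passed by edgeR, as did 0% of all genes, and 0 of 28 by DESeq2, which called 0.615% of genes for the suprabasal list, 0.233% for the cell cycle, 0.466% for glycolysis and 0.55% for the immediate early list. At an unadjusted p under 0.05 there were 1 of 28 for the suprabasal list (Sc5d), compared with 4.35% of all genes, and 1 for the cell cycle (Hsd17b7), compared with 3.55%. There were 3 for glycolysis (Idi1, Cyp51 and Sc5d) and 0 for the immediate early list, each compared with 3.81% of all genes. With 2 mice per genotype these tests had 2 residual degrees of freedom.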

How the data were processed

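Counts were the authors' deposited expected counts per gene and cell, made with RSEM and STAR on mm10 (GRCm38), per the submitters' processing notes; 21.5% of values above 0 were not whole. Gene IDs were matched to GENCODE M21 symbols (53857 with and 299 without version numbers, 91 unmatched). All cells were kept. Expected counts were summed per mouse, or per mouse and class, rounded and tested with edgeR 4.0.16 (TMM, filterByExpr, quasi-likelihood, two-sided, Benjamini-Hochberg over all genes, threshold 0.05), with mouse as block for classes; the block rests on both classes coming from the same mouse. DESeq2 1.42.0 and limma 3.58.1 were alternatives. SE is the difference over the root of the F statistic. Scores were mean z values of log2(CPM + 1) within a mouse, less linear trends on log10 total counts and detected genes. On simulated counts for the genotype comparison (16567 genes), 98 of 100 genes changed 4-fold and 19 of 100 changed 2-fold were called. For the suprabasal classes (14108 genes) they were 100 and 70 of 100. The simulated spread between sums was smaller than the edgeR fit to the real sums (biological coefficient of variation 0.723 for genotype and 0.653 for suprabasal classes). These shares are therefore no measure of what the real comparisons could find. The 28 genes, the lists and the rule for named genes (all 28; of the pathway lists those past the threshold, or else the 2 largest differences between genotypes in each direction) were chosen with earlier results of these data known. Nothing says that the 2 mice of a genotype shared a litter or day, and no genotype pairing was made. Some genes that the naming rule covers are not reported here.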

Additional observations from a re-analysis of the deposited data

How the results depend on the processing

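There were 2 mice per genotype and 4 in all. The count of the 28 genes called between genotypes was 0 under all alternatives run. For the suprabasal classes it was 2 with median-ratio scaling and thinned cells, 1 without the filter on low counts, 22 with DESeq2, 4 when only the cells of highest and lowest score (outer terciles) were compared, 4 with the score without trend removal, 0 without the replicate block and 0 to 0 when 1 mouse was left out. For the cell cycle classes DESeq2 called 3. The cause of these changes was not tested, except that leaving out a mouse leaves fewer samples. For all genes, edgeR and DESeq2 called 0 and 150 between genotypes, 35 and 1465 between suprabasal classes, 3 and 866 between cycle classes, 0 and 136 between glycolysis classes and 0 and 210 between immediate early classes. With edgeR the 35 became 61 in thinned cells, 65 with outer terciles, 73 without trend removal, 3 without the block and 0 to 9 without 1 mouse, and the 3 became 33 and 62 with thinned cells and outer terciles and 0 otherwise. Without trend removal the mean pairwise correlation was 0.280 over sterol pairs, 0.131 over fatty acid pairs, 0.183 between arms and 0.032 over all genes; the last was 0.008 with detection in 50% of cells and 0.005 with Spearman's. Leaving out a mouse gave sterol means of 0.178 to 0.218. WT1 and KO3 lay above WT2 and KO1 for 19 to 20 of the 28 genes and for 13 of 17 sterol genes under the alternatives added after seeing the data (median-ratio scaling, thinned cells, 1 plate per mouse). No suprabasal difference of the 28 changed sign under any alternative. Elovl4's cycle call was also lost with median-ratio scaling (adjusted p = 0.0545, edgeR), without the filter on low counts, without trend removal and without the block. Of the values for single genes and lists under alternatives, 1448 were counted as unchanged, 181 moved by more than their error and 20, of Fdps, Sqle and Elovl4, lost the call. A gene called in the main fit counted as unchanged when it stayed called. Any other value counted so when it moved by no more than its error, even where an alternative newly called the gene. No paired analysis was possible between genotypes because only the number 1 is shared.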
